A study of Homo sapiens with 6 samples.

Results

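The E2F and DP transcription factors were examined as the 10 gene symbols E2F1 to E2F8, TFDP1 and TFDP2 among the 35615 symbols of a gene count table from K562 cells. All 10 had enough counts to be tested, as did 14543 symbols in all. K562 is a human erythroleukaemia line from chronic myeloid leukaemia in blast crisis, driven by the BCR-ABL1 fusion kinase. The groups were cells that took up, by nucleofection, a mimic of hsa-miR-92a-1-5p (libraries miR92a 1 to 3) and cells given a negative-control mimic in the same way (libraries scramble 1 to 3). Each culture held 5 M cells and received 500 pmol of mimic. All 6 cultures, the controls included, received 1 µM imatinib, an inhibitor of ABL1, at 4 h from transfection, with RNA extracted a further 24 h on. The labels name 3 biological replicates a group and give the genotype as control, so the comparison is between 2 mimics under imatinib and says nothing of either alone. It rests on a transient transfection of 1 cell line, and the level of the mimic itself was not analysed here.

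E2F proteins bind promoters of genes needed for DNA replication and decide, with the retinoblastoma family, whether a cell leaves G1. E2F1, E2F2 and E2F3 are activators held by RB1, and E2F4 and E2F5 act mainly as repressors with the RB1 relatives RBL1 and RBL2. E2F6 represses without a pocket protein, and the atypical members E2F7 and E2F8 repress without a DP partner. TFDP1 and TFDP2 encode DP1 and DP2, the partners that E2F1 to E2F6 need to bind DNA. Cyclin-dependent kinases release the activators by phosphorylating RB1, and imatinib is known to hold BCR-ABL1 cells in G1.

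The transcripts of E2F2, of the atypical repressors E2F7 and E2F8 and of the DP partner TFDP1 had higher mean levels with the miR-92a-1-5p mimic than with the negative-control mimic, while the differences of the other members were smaller than these 4. E2F2 showed the largest difference of the family, 2.14-fold, with 56.2 ± 15.2 CPM in miR92a cells and 26.5 ± 8.21 CPM in scramble cells (SD, n = 3 each). CPM are counts per 1 M counts of a library, scaled between libraries by TMM. In the comparison by group alone, 0 of 10 members passed an adjusted p of 0.05 (edgeR's quasi-likelihood test with Benjamini-Hochberg adjustment over all tested genes), against 1.41% of all tested genes. At an unadjusted p under 0.05 the higher members were E2F2 and E2F7, 2 of 10, against 6.0% of tested genes that were higher, and 0 of 10 were lower, against 7.51%. DESeq2 called E2F2 alone (1 of 10, higher), against 0.942% of tested genes called higher, and limma-voom called 0.

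Libraries with the same replicate number deviated together, so the comparison was also made with the replicate number as a block. With the block 4 of 10 members rose, E2F2, E2F7, E2F8 and TFDP1, against 4.57% of tested genes, and 0 of 10 fell, against 6.70%. These 4 members were higher in each same-numbered pair of libraries, 2 members were lower in each pair (E2F4 and TFDP2), and 4 were of mixed sign. The block compares libraries within these same pairs, so the signs are not separate support for its calls. How many of all tested genes kept their sign in every pair was not counted. The highest scramble value lay below the lowest miR92a value for E2F2 and E2F7, 2 of 10 members, against 9.73% of tested genes. Counting both directions, the groups did not overlap for 2 of 10 members and for 3087 of 14543 tested genes. The numbers mainly set replicate 3 apart from replicates 1 and 2, and a fit with replicate 3 alone as a batch term also called 4 members higher, against 6.71% of tested genes. In bulk RNA, a change in the share of cycling cells and a change in RNA per cell cannot be told apart.

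**Figure D1:**
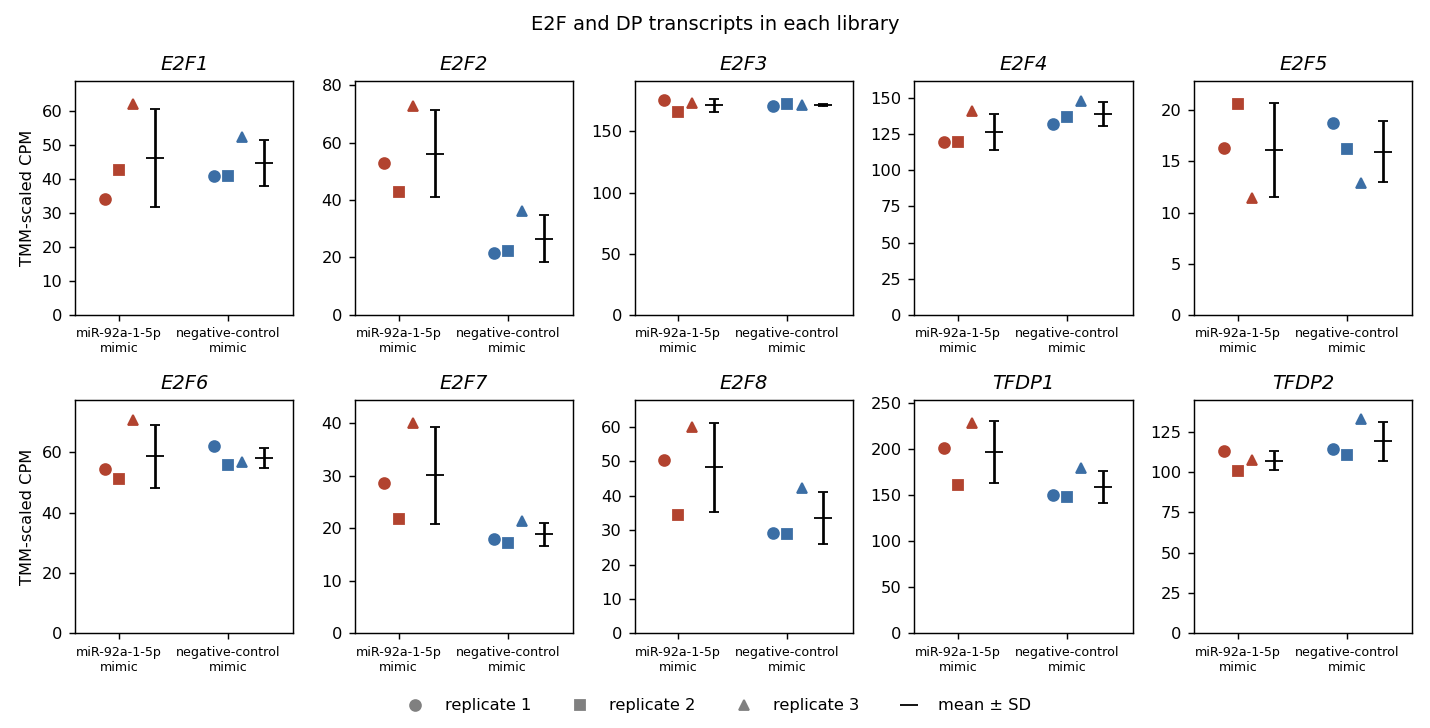
Level of each of the 10 transcripts (y axis, TMM-scaled CPM, each panel on its own scale from 0) in the 3 miR-92a-1-5p mimic libraries and the 3 negative-control mimic libraries, with markers for the replicate number and the mean ± SD beside them. The miR92a points of E2F2 and E2F7 lie above all scramble points, while the groups of the other members overlap.

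Total counts lay between 24.8 and 26.0 M in 5 libraries, whereas miR92a 1 held 0.704 M, 36.0-fold under the median of the others. The members had 12 to 148 counts in miR92a 1, which gives a counting error (Poisson) of 8.22% to 28.9%, and 284 to 5697 counts elsewhere, which gives 1.32% to 5.93%. The labels call the cells myeloblasts, but of 8 myeloblast markers the defining MPO was at 0 in all libraries and 5, MPO among them, averaged under 1 CPM, while 10 of 10 erythroid markers were detected. Erythroid markers summed to 9205 to 18220 CPM in miR92a cells and 11750 to 19410 CPM in scramble cells, with the lower sum in the miR92a library of each same-numbered pair. Of these 10 markers 7 were lower in every pair and 1 was higher in every pair, counts that were not set against all tested genes. TFRC had 885.7, 833.1 and 1219 CPM in miR92a cells, against 1364, 1326 and 2031 CPM in scramble cells. TFRC and ALAS2 did not overlap between groups, as KLF1 did not in the higher direction. Of all 14543 tested genes, 3087 did not overlap in 1 direction or the other. Myeloblast markers, nearly all KIT and CD33, summed to 58.6 to 137.7 CPM in miR92a cells and 63.3 to 114.2 CPM in scramble cells. Megakaryocyte markers summed to 14.6 to 62.3 CPM in miR92a cells and 13.2 to 61.3 CPM in scramble cells, and lymphoid markers summed to 5.44 to 8.02 CPM in miR92a cells and 7.65 to 7.94 CPM in scramble cells. In replicate 3 of both groups, HBE1 was at 6682 CPM in miR92a 3 and 6260 CPM in scramble 3, and at 2547 to 3176 CPM in the other libraries. ITGA2B was lower there, at 14.5 CPM in miR92a 3 and 12.9 CPM in scramble 3, against 55.8 to 61.9 CPM elsewhere. The part of these marker differences in the members' values was not tested.

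The microRNA is shown because its seed decides which transcripts can carry a match. The mature sequences of both strands of the hairpin, from RefSeq on GRCh38.p14, lie on the plus strand at chr13:91351324-91351346 for miR-92a-1-5p and at chr13:91351361-91351382 for miR-92a-3p. The capitals mark the seed, bases 2 to 8, and the seeds of the strands differ.
hsa-miR-92a-1-5p: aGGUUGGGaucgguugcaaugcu
hsa-miR-92a-3p: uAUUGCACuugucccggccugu
For miR-92a-1-5p, 3′ UTRs in GENCODE v29 (the longest one per gene) were searched for the 8mer CCCAACCA and for its 7mers, CCCAACC and CCAACCA. None of the 10 members held one, against 16.9% of the 12885 tested genes with a 3′ UTR. No other annotated transcript of a member held one either, and no member's longest 3′ UTR held the 6mer CCAACC.

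Matches to the 3p strand, which was not the mimic given, are shown for comparison. The 7mers GTGCAAT and TGCAATA and the 8mer GTGCAATA were found in 2 of 10 members, E2F3 and TFDP2, against 20.1% of tested genes. Each had 1 match, at chr6:20490702-20490708 on the plus strand for E2F3 and at chr3:141951574-141951580 on the minus strand for TFDP2 (GRCh38), printed with 11 bases on each side and the match in capitals.
E2F3: agtgagaaaatGTGCAATcaggtgtctct
TFDP2: tctcacccagtGTGCAATttgtgaaaatg
E2F2, E2F7, E2F8 and TFDP1, the members that rose with the block, held no 7mer or 8mer of either strand.

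Among the activators, only E2F2 passed the threshold in any of the fits run here, group-only, blocked or alternative. The gene lies at chr1:23506430-23531220 on the minus strand (GRCh38, GENCODE v29). E2F2 had 53.1, 42.9 and 72.7 CPM in miR92a 1, 2 and 3, against 21.5, 22.1 and 36.0 CPM in scramble 1, 2 and 3. Every miR92a library was above every scramble library, and replicate 3 was the highest of each group. The log2 fold change was 1.10 ± 0.26 (SE; 95% interval 0.51 to 1.69), with an unadjusted p of 0.0025 and an adjusted p of 0.0971 in edgeR's group-only test. With the replicate block it was 1.04 ± 0.12 (95% interval 0.80 to 1.28), with an adjusted p of 3.49e-06. By p-value E2F2 stood 375th of 14543 tested genes by group alone and 76th with the block. Its log2 CPM differences were 1.30, 0.95 and 1.01 in the same-numbered pairs 1, 2 and 3. Direction was kept in 19 of 19 alternatives, with adjusted p-values between 7.72e-11 and 0.312. In the group-only test the call was gained without scramble 3 (log2 fold change 1.39, adjusted p 0.0288). With the block it held with each pair left out in turn, with adjusted p-values of 6.69e-09 to 0.000205.

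E2F1, the activator also linked to cell death, did not pass. It lies at chr20:33675683-33686404 on the minus strand. The level of E2F1 was 34.0, 42.6 and 62.1 CPM in the miR92a libraries, against 40.8, 40.7 and 52.4 CPM in the scramble libraries. The groups overlapped, the highest and the lowest value both being miR92a libraries, of which miR92a 1 held 25 counts. Its log2 fold change was 0.13 ± 0.20 (95% interval -0.32 to 0.59; adjusted p 0.844 in edgeR's test), and with the block 0.10 ± 0.11 (95% interval -0.14 to 0.33). A difference as large as that of E2F2 lies outside both intervals.

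E2F3, at chr6:20401906-20493715 on the plus strand, was the most abundant activator in counts and the steadiest member. The miR92a libraries held 175.5, 165.5 and 172.8 CPM, against 170.7, 172.4 and 171.9 CPM in the scramble libraries. The estimated log2 fold change was -0.01 ± 0.08 (95% interval -0.19 to 0.17; adjusted p 0.990 in edgeR's test). Its 2 promoters in RefSeq give transcripts for E2F3a and E2F3b, which the table does not separate.

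**Figure D2:**
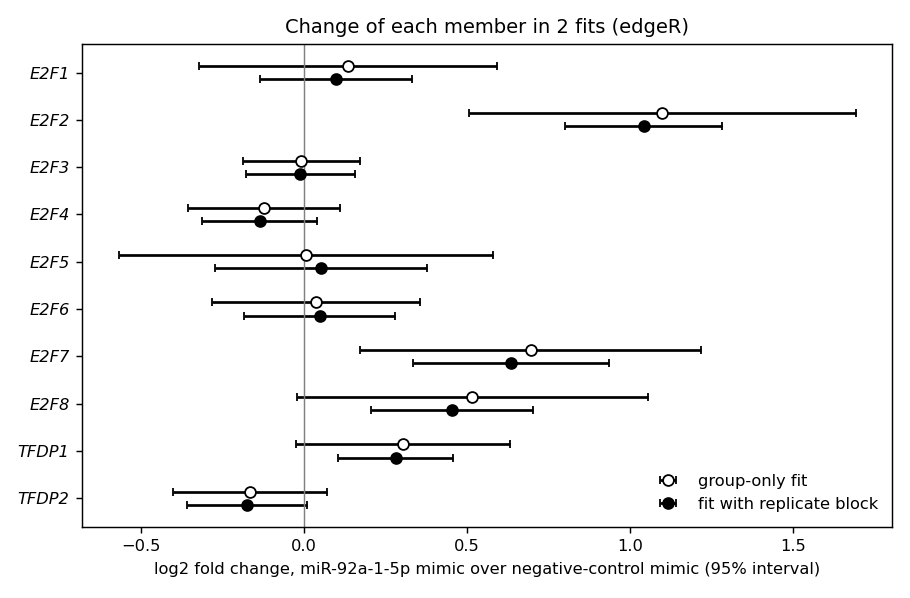
Log2 fold change of each member, miR-92a-1-5p mimic over negative-control mimic (x axis), with its 95% interval, in the fit by group alone (open circles) and with the replicate block (filled circles). With the block the intervals of E2F2, E2F7, E2F8 and TFDP1 lie above 0, and the intervals of the other members include 0.

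E2F2 held a larger share of the activator counts with the mimic. E2F2 counts made up 20.2%, 17.1% and 23.6% of the counts of E2F1, E2F2 and E2F3 in miR92a 1, 2 and 3, against 9.23%, 9.39% and 13.8% in scramble 1, 2 and 3. The exact 95% binomial interval, which covers counting error only, was 14.8% to 26.6% in the shallow miR92a 1 and did not reach the scramble shares. The share of E2F3 was 66.8%, 65.9% and 56.2% in miR92a cells, against 73.2%, 73.3% and 66.0% in scramble cells. Counts are not corrected for length here, so a share says nothing of molecules of one gene against another.

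A ratio of counts within a library is free of the scaling between libraries. The E2F2 to E2F1 ratio was 1.56, 1.01 and 1.17 in miR92a 1, 2 and 3, against 0.526, 0.543 and 0.687 in scramble 1, 2 and 3. E2F2 thus had more counts than E2F1 in every miR92a library and fewer in every scramble library. In miR92a 2 the counts were 1123 for E2F2 and 1116 for E2F1, a gap within counting error (Poisson, 2.98% and 2.99%). In the shallow miR92a 1 they were 39 for E2F2 and 25 for E2F1. E2F2 to E2F3 was 0.302, 0.259 and 0.421 in miR92a cells, against 0.126, 0.128 and 0.210 in scramble cells. Of 5 such ratios, chosen after the values were seen, 3 did not overlap between groups, E2F2 to E2F1, E2F2 to E2F3 and TFDP1 to TFDP2. Each of these 3 had p = 0.1 in a two-sided exact permutation test, the smallest that 3 against 3 libraries allow, and 0.167 adjusted over the 5 ratios.

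**Figure D3:**
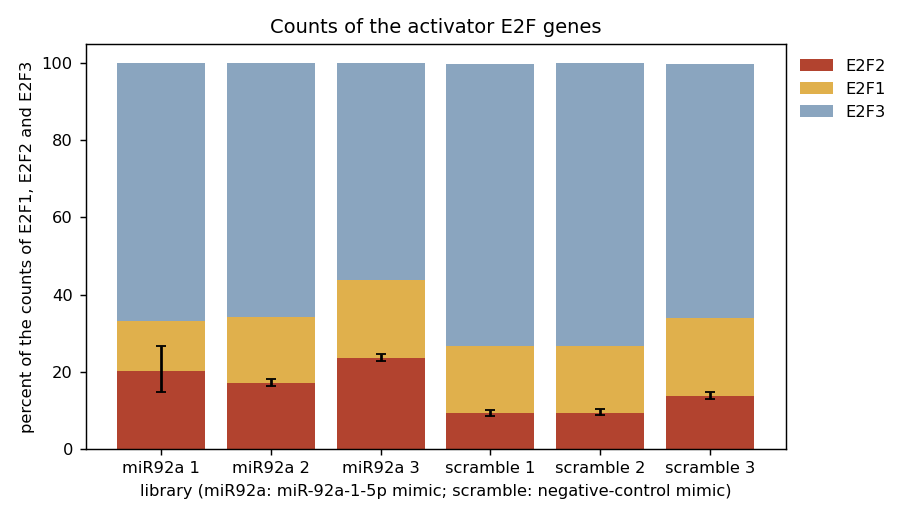
Share of the summed E2F1, E2F2 and E2F3 counts held by each gene (y axis, percent, stacked to 100) in each library, with the exact 95% binomial interval of the E2F2 share as an error bar. E2F2 holds 17.1% to 23.6% in the 3 miR92a libraries and 9.23% to 13.8% in the 3 scramble libraries.

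The promoters of E2F2 and E2F1 are known to be E2F-controlled, and those of the 3 members with the largest differences that have one in the RefSeq table are printed with that of E2F1. Each runs from 250 bases before to 50 bases after the start of the gene on GRCh38.p14, read along the gene's strand. They lie at chr1:23531184-23531483 (minus strand) for E2F2, chr12:77065520-77065819 (minus) for E2F7, chr13:113584503-113584802 (plus) for TFDP1 and chr20:33686336-33686635 (minus) for E2F1. The capitals mark matches to the E2F site octamers TTTGGCGC, TTTCCCGC, TTTGGCGG and TTTCGCGC, searched on both strands.
E2F2: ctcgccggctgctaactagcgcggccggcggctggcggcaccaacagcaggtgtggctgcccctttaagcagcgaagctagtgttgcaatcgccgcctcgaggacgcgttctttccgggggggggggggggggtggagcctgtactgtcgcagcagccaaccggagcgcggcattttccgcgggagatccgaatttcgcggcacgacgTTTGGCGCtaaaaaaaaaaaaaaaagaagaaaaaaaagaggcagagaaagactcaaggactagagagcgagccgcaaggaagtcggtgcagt
E2F7: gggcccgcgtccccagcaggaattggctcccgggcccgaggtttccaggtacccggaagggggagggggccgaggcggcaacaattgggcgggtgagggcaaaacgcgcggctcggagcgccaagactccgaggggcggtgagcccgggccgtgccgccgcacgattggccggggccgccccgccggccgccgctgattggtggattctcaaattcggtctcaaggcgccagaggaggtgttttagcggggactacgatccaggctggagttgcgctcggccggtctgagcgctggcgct
TFDP1: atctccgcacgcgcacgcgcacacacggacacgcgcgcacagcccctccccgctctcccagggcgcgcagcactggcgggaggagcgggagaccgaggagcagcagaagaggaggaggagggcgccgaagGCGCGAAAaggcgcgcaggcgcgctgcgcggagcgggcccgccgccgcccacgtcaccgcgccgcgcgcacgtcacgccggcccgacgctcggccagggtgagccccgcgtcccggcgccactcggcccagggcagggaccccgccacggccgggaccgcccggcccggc
E2F1: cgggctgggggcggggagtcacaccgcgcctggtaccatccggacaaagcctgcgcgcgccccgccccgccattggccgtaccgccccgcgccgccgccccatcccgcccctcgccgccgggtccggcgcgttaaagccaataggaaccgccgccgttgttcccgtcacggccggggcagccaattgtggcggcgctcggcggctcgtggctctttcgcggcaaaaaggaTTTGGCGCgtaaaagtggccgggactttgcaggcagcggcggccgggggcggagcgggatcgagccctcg
E2F2 held TTTGGCGC with its first base at -42 from the start, and E2F1 held the same octamer at -20. TFDP1 held TTTCGCGC on the opposite strand at -120, and these letters were not in the E2F7 window.

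Of the other members, 1 of the E2F3 promoters held TTTCCCGC on the opposite strand at -53 and 1 of the TFDP2 promoters TTTGGCGG on the opposite strand at 18 bases after the start. In all, 5 of the 11 promoters listed for 8 members held an octamer, against 3.35% of all 35116 promoters and 4.80% of those of tested genes. Of the promoters of the G1/S target list described further on, 44.4% (24 of 54) held one. TTTGGCGC alone was in 0.652% of all promoters.

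The repressor E2F4, at chr16:67192169-67198918 on the plus strand, is the main E2F of resting cells. E2F4 had 119.7, 119.2 and 141.1 CPM in miR92a cells, against 132.2, 136.8 and 148.0 CPM in scramble cells. Its values were lower in each miR92a library than in its same-numbered scramble library, but the groups overlapped. Its log2 fold change was -0.12 ± 0.10 (adjusted p 0.688 in edgeR's test), and -0.14 ± 0.08 with the block (adjusted p 0.354). It ran from -0.22 without miR92a 3 to -0.066 without miR92a 2.

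E2F5, which like E2F4 is known to bind RBL2, had the lowest mean CPM of the members in both groups. In scramble 1 alone E2F7 was lower, at 17.9 CPM. E2F5 had 16.3, 20.6 and 11.4 CPM in miR92a cells, against 18.8, 16.2 and 12.9 CPM in scramble cells. Replicate 3 was lowest in both groups, and the direction differed between the pairs. The estimate was a log2 fold change of 0.01 ± 0.25, with a 95% interval of -0.57 to 0.58 (adjusted p 0.998 in edgeR's test).

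E2F6, at chr2:11444375-11466177 on the minus strand, works in the Polycomb complex PRC1.6 and silences germline genes. It had 54.4, 51.0 and 70.6 CPM in miR92a cells, against 62.0, 55.7 and 56.6 CPM in scramble cells. Only miR92a 3 lay above the scramble libraries, and the log2 fold change was 0.04 ± 0.14 (95% interval -0.28 to 0.36; adjusted p 0.959 in edgeR's test).

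E2F7 and E2F8 bind E2F sites through a duplicated DNA-binding domain, are themselves E2F1 targets and repress E2F1 and replication genes late in S phase. Both had higher means with the mimic and rose with the block. E2F7 lies at chr12:77021247-77065580 on the minus strand and had 28.6, 21.7 and 40.0 CPM in miR92a cells, against 17.9, 17.2 and 21.3 CPM in scramble cells. The lowest miR92a library lay just above the highest scramble library, so the groups did not overlap.

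The log2 fold change of E2F7 was 0.70 ± 0.23 (95% interval 0.17 to 1.22), with an unadjusted p of 0.0150 and an adjusted p of 0.226 in edgeR's group-only test. With the replicate block it was 0.64 ± 0.14, with an adjusted p of 0.00624, in a range of 0.0024 to 0.607 over all alternatives. That call was lost without the replicate 3 pair (log2 fold change 0.43, adjusted p 0.180). In the group-only test the log2 fold change was 0.31 without miR92a 3.

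E2F8 lies at chr11:19224063-19241620 on the minus strand. It had 50.3, 34.5 and 60.1 CPM in miR92a cells, against 29.3, 28.9 and 42.2 CPM in scramble cells. The groups overlapped, since miR92a 2 lay below scramble 3. The log2 fold change was 0.52 ± 0.24 (95% interval -0.02 to 1.06; adjusted p 0.392 in edgeR's test). With the block it was 0.45 ± 0.12, with an adjusted p of 0.0158, in a range of 0.0158 to 0.815 over all alternatives. The call was lost without the replicate 1 pair (0.39, adjusted p 0.0713) and without the replicate 3 pair (0.41, adjusted p 0.0839). By group alone the log2 fold change was 0.21 without miR92a 3. The E2F8 to E2F7 count ratio was 1.76, 1.59 and 1.499 in miR92a cells, against 1.63, 1.68 and 1.98 in scramble cells, which overlapped.

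The DP partners had mean differences of opposite sign, and of these only TFDP1 passed, with the block. TFDP1, at chr13:113584721-113641470 on the plus strand, encodes DP1, the main partner in most cells. It had 201.4, 161.1 and 228.4 CPM in miR92a cells, against 149.9, 147.7 and 179.5 CPM in scramble cells. The groups overlapped between miR92a 2 and scramble 3. The log2 fold change was 0.30 ± 0.14 (95% interval -0.02 to 0.63; adjusted p 0.410 in edgeR's test), and 0.28 ± 0.08 with the block (adjusted p 0.0353, in a range of 0.0353 to 0.770 over all alternatives). That call was lost with each pair left out in turn, with adjusted p-values of 0.0687 to 0.173, and with the block in DESeq2 (0.0516) and limma-voom (0.0691). By group alone the log2 fold change was 0.15 without miR92a 3.

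TFDP2, which encodes DP2 and lies at chr3:141944428-142149544 on the minus strand, did not pass. It had 112.9, 101.0 and 107.6 CPM in miR92a cells, against 114.2, 110.4 and 132.7 CPM in scramble cells. Each miR92a library was below its same-numbered scramble library, by 0.02, 0.13 and 0.30 on the log2 scale. Its log2 fold change was -0.17 ± 0.10 (adjusted p 0.569 in edgeR's test), and -0.18 ± 0.09 with the block (adjusted p 0.236). By group alone it was -0.084 without scramble 3. The TFDP1 to TFDP2 count ratio was 1.78, 1.59 and 2.12 in miR92a cells, against 1.31, 1.34 and 1.35 in scramble cells, with no overlap.

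**Figure D4:**
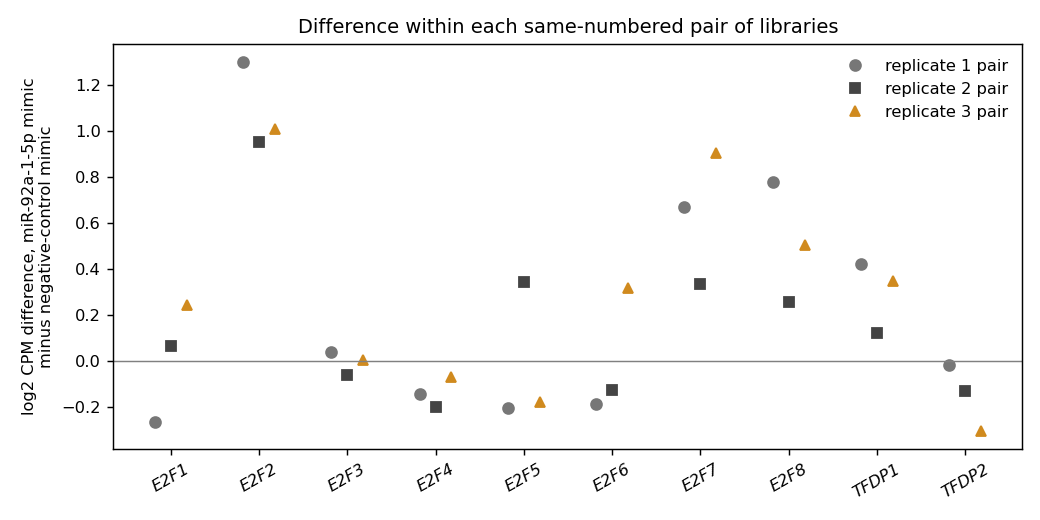
Difference in log2 CPM between the miR-92a-1-5p mimic library and the negative-control mimic library of the same replicate number (y axis) for each member, with 1 marker per pair. E2F2, E2F7, E2F8 and TFDP1 are above 0 in all 3 pairs, E2F4 and TFDP2 below 0 in all 3, and the other members lie on both sides.

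Summed by role, the atypical members together had 78.9, 56.2 and 100.1 CPM in miR92a cells, against 47.2, 46.0 and 63.6 CPM in scramble cells. The activators summed to 262.6, 251.0 and 307.7 CPM in miR92a cells, against 233.0, 235.2 and 260.3 CPM in scramble cells. E2F4, E2F5 and E2F6 summed to 190.5, 190.8 and 223.1 CPM in miR92a cells, against 212.9, 208.7 and 217.5 CPM in scramble cells. The DP genes summed to 314.3, 262.1 and 336.0 CPM in miR92a cells, against 264.2, 258.1 and 312.2 CPM in scramble cells. The groups overlapped for each role, and for the atypical members and the activators scramble 3 was the only scramble library that reached into the miR92a range.

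Replicate 3 stood apart for several members in both groups. It was above the mean of replicates 1 and 2 for 9 of 10 members in miR92a cells and 8 of 10 in scramble cells. These counts include differences near 0, for E2F3 0.02 (log2) in miR92a cells and 0.003 in scramble cells. For TFDP2 the difference was 0.011 in miR92a cells and 0.24 in scramble cells. The share of all tested genes that were higher in replicate 3 was not counted. E2F2 was higher in replicate 3 by 0.61 (log2) in miR92a cells and 0.72 in scramble cells. E2F8 was higher by 0.53 in miR92a cells and 0.54 in scramble cells, and E2F5 was lower by 0.68 in miR92a cells and 0.43 in scramble cells. For E2F1 the replicate 3 difference was 0.71 in miR92a cells and 0.36 in scramble cells, and for E2F7 0.68 in miR92a cells and 0.28 in scramble cells. For 5 of 10 members, E2F1, E2F4, E2F5, E2F6 and E2F8, the size of the replicate 3 difference was larger in both groups than that between the mimics in the group-only fit.

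Levels of different genes are compared per length, as CPM per kb of the median length of a gene's annotated coding transcripts. TFDP1 led with 227 ± 39.1 CPM per kb in miR92a cells and 184 ± 20.5 in scramble cells (SD, n = 3 each). TFDP2 followed with 123 ± 6.82 in miR92a cells and 137 ± 13.7 in scramble cells, and E2F4 with 99.7 ± 9.83 in miR92a cells and 109 ± 6.38 in scramble cells. E2F3 came next with 38.7 ± 1.17 in miR92a cells and 38.8 ± 0.196 in scramble cells. With this length these neighbours did not overlap in either group.

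E2F1 had 18.5 ± 5.75 CPM per kb in miR92a cells and 17.8 ± 2.68 in scramble cells, and overlapped E2F6 in both groups. Below them E2F8, E2F7, E2F5 and E2F2 had means of 14.5, 13.1, 12.2 and 10.8 CPM per kb in miR92a cells, and each overlapped its neighbours. In scramble cells E2F5, E2F8 and E2F7 had 12.1, 10.0 and 8.17 CPM per kb and overlapped one another in that order, whereas E2F2 was lowest at 5.11 ± 1.58 with no overlap with E2F7. The order rests on the length chosen, also at the top. With the longest transcript TFDP1 had 74.4 in miR92a cells and 60.1 in scramble cells. E2F4 then had 60.4 in miR92a cells and 66.3 in scramble cells, so it led in scramble cells, and the 2 genes overlapped in both groups. TFDP2 had 10.9 in miR92a cells and 12.1 in scramble cells, and E2F7 was lowest at 5.25 in miR92a cells and 3.28 in scramble cells.

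The genes around the family were read as 8 lists of the pathway, beside a median log2 fold change of -0.01 over all tested genes. The lists share genes, which count in each list that holds them. CCNE1 and CCNE2 are both cyclins and G1/S targets, and RBL1 and MYBL2 are in both the pocket and MuvB list and the target list. In the group-only test of edgeR 0 genes of any list passed, DESeq2 called 2 G1 cyclin and kinase genes, 1 inhibitor, 1 PRC1.6 gene and 3 G1/S targets, and limma-voom called 1 PRC1.6 gene. Counts given for the lists below are therefore those with the replicate block, for which 4.57% of all tested genes rose and 6.70% fell. The lists are described by counts and medians only, and at an unadjusted p under 0.05 by group alone 6.0% of all tested genes were higher and 7.51% lower.

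Replication and nucleotide genes that E2F proteins are known to control at G1/S were mostly higher with the mimic. With the block 15 of 43 rose and 1 fell, and 38 of 43 had a positive log2 fold change, against 48.3% of all tested genes, with a median of 0.22. At an unadjusted p under 0.05 in the group-only test 15 were higher and 1 lower, against 6.0% and 7.51% of all tested genes. RRM2, a ribonucleotide reductase subunit, had 276.2, 253.0 and 323.2 CPM in miR92a cells, against 224.4, 176.1 and 191.3 CPM in scramble cells (0.55 ± 0.09 with the block, adjusted p 0.000265 in edgeR's test; 0.104 by group alone). The groups did not overlap.

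CHAF1A, which loads histones onto new DNA, averaged 174.7 ± 20.9 CPM in miR92a cells and 123.4 ± 11.04 CPM in scramble cells (0.50 ± 0.08 with the block, SD and n = 3 for the means). RFC4, a subunit of the clamp loader, averaged 75.5 ± 6.04 CPM in miR92a cells and 53.3 ± 4.22 CPM in scramble cells (0.49 ± 0.10 with the block). The gene that fell was UNG, a uracil glycosylase of DNA repair, named after its values were seen, with 71.9 ± 11.4 CPM in miR92a cells and 97.0 ± 8.74 CPM in scramble cells (-0.41 ± 0.09 with the block). The median of the list was 0.07, 0.17 and 0.33 in the pairs 1, 2 and 3, so it was highest in replicate 3. Without the replicate 2 pair the number of targets called with the block was 5, in place of 16, and UNG was then not called (adjusted p 0.0859), while RRM2, CHAF1A and RFC4 were called with each pair left out in turn.

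Among 9 G1 cyclins and kinases, 3 rose and 1 fell with the block, and by group alone 2 were higher and 1 lower at an unadjusted p under 0.05. CCNA2, the S-phase cyclin A2, had 292.5, 291.2 and 268.5 CPM in miR92a cells, against 233.7, 217.7 and 189.4 CPM in scramble cells (0.43 ± 0.08 with the block). CCNE1, cyclin E1 and an E2F target, averaged 54.6 ± 22.2 CPM in miR92a cells and 39.2 ± 14.1 CPM in scramble cells, and its groups overlapped (0.51 ± 0.11 with the block). CDK4 rose by 0.25 ± 0.08, and CDK6, the other kinase of D-type cyclins, fell by 0.54 with an SE of 0.09. CDK6 had 183.7, 202.8 and 133.6 CPM in miR92a cells, against 251.9, 253.8 and 232.7 CPM in scramble cells, with no overlap. With each pair left out in turn CCNA2 and CDK6 stayed called, the call of CCNE1 was lost without pair 2 and that of CDK4 was lost each time.

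Of 7 inhibitors of these kinases 5 were tested, CDKN2A and CDKN2B being at 0 counts in all libraries, and by group alone 2 were higher and 1 lower at an unadjusted p under 0.05. With the block 2 rose and 1 fell. CDKN2C, which blocks CDK4 and CDK6 and is itself known as an E2F target, had 85.7, 80.1 and 112.0 CPM in miR92a cells, against 53.9, 57.8 and 71.1 CPM in scramble cells (0.58 ± 0.09). CDKN1B, the p27 inhibitor of CDK2, rose by 0.33 ± 0.10, while CDKN1C, the p57 inhibitor, fell by 0.52 with an SE of 0.11. The call of CDKN1B was lost without pair 1 or pair 2, and those of the other 2 genes held with each pair left out.

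Pocket proteins and the MuvB core are known from the repressive DREAM complex with E2F4. They were read in 1 list with MYBL2, FOXM1 and DYRK1A, which are neither pocket proteins nor of the MuvB core. Of the 11 genes of that list 0 rose and 1 fell. By group alone 1 was higher, FOXM1, and 1 lower, RBL2, at an unadjusted p under 0.05. The one that fell was RBL2, the pocket protein of resting cells, with 87.1, 93.3 and 86.7 CPM in miR92a cells, against 109.5, 106.4 and 123.3 CPM in scramble cells (-0.35 ± 0.09 with the block, adjusted p 0.0181; 0.168 by group alone in edgeR's test). The call was lost with each pair left out in turn, with adjusted p-values of 0.0529 to 0.0896. RB1, named after its values were seen, averaged 68.2 ± 13.5 CPM in miR92a cells and 71.8 ± 5.94 CPM in scramble cells and did not pass.

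Of 6 genes that degrade E2F proteins or cyclins 2 rose, the anaphase-promoting complex activators FZR1 (0.48 ± 0.11) and CDC20 (0.36 ± 0.11), with 1 higher by group alone at an unadjusted p under 0.05. CDC20 overlapped between groups and was low in scramble 3, at 64.5 CPM, and its call was lost without pair 3 (0.14, adjusted p 0.379). The PRC1.6 complex of E2F6 had 3 of 12 genes that rose, WDR5 (0.45 ± 0.09), PCGF6 (0.45 ± 0.14) and EHMT1 (0.29 ± 0.09), with 3 higher and 1 lower by group alone at an unadjusted p under 0.05. Without pair 2 none of these 3 was called. The call of PCGF6 was also lost without pair 1, and that of EHMT1 was lost with each pair left out in turn. PCGF6 is the subunit that defines the complex, and it averaged 25.8 ± 2.84 CPM in miR92a cells and 18.3 ± 0.334 CPM in scramble cells.

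Of 8 germline genes that E2F6 silences, 3 had enough counts to test. With the block 0 passed the adjusted threshold in edgeR's test, with 1, SYCE2, at an unadjusted p under 0.05, and by group alone 0 were at an unadjusted p under 0.05. STAG3, a meiotic cohesin subunit, was at 12.2, 13.97 and 16.8 CPM in miR92a cells, against 13.9, 17.1 and 20.7 CPM in scramble cells. SYCE2, of the synaptonemal complex, was at 5.44, 3.40 and 2.89 CPM in miR92a cells, against 2.47, 2.77 and 1.33 CPM in scramble cells. In the shallow miR92a 1, 3 counts make 4.08 CPM, so the highest of these values rests on few counts.

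Death genes known as E2F1 targets gave 0 that rose and 1 of 7 that fell, with 0 at an unadjusted p under 0.05 by group alone. PMAIP1, the BH3-only protein NOXA, fell by 0.55 with an SE of 0.16 with the block (adjusted p 0.0310 in edgeR's test). It had 13.6, 15.8 and 8.54 CPM in miR92a cells, against 20.7, 18.8 and 15.6 CPM in scramble cells, which overlapped, and the call was lost without pair 1 or pair 3. Of the 7 log2 fold changes 6 were negative, against 7523 of all 14543 tested genes, and their median was -0.23. None of the genes named from these lists by the rule given below held a 7mer or 8mer match to miR-92a-1-5p in its longest 3′ UTR. That rule leaves out UNG, RB1, FOXM1 and genes named only for their place in a list. The share of tested genes with a 3′ UTR that held one was 16.9%. Matches to the 3p strand were in RBL2, CDK6 and CDKN1C, which fell with the block, and in PCGF6 and EHMT1, which rose. The other genes named by the rule held none, among them PMAIP1, which also fell. The share of tested genes with a 3p match was 20.1%, and a link between matches and direction was not tested.

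**Figure D5:**
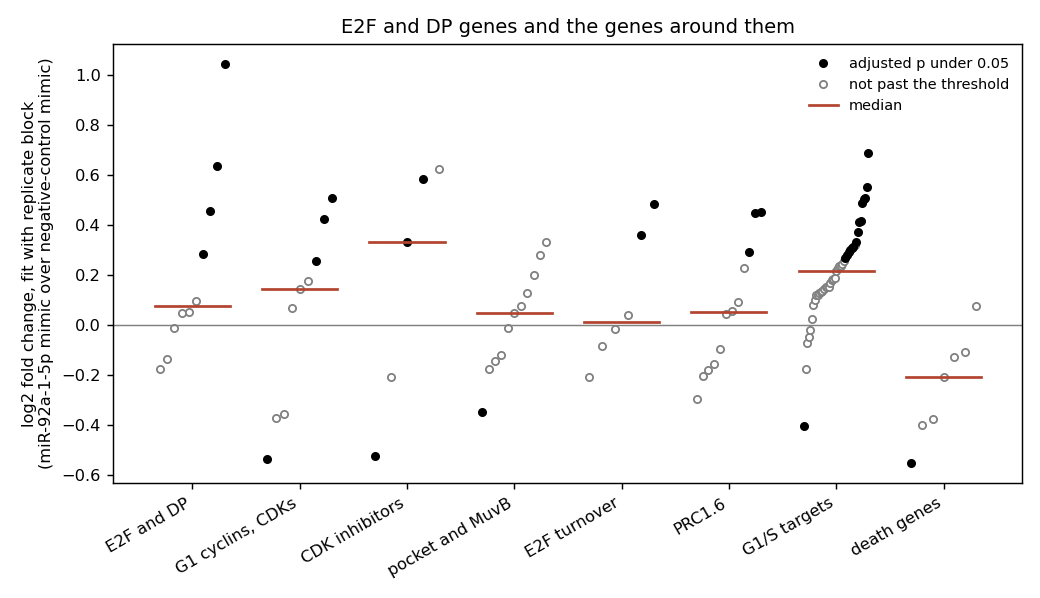
Log2 fold change with the replicate block, miR-92a-1-5p mimic over negative-control mimic (y axis), of each tested gene of the family and of 7 pathway lists (x axis), with filled points past an adjusted p of 0.05 and a bar at the median. Of the G1/S targets 15 rose and 1 fell, and of the E2F and DP genes 4 rose and 0 fell.

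The genes whose pattern over the 6 libraries was most like that of E2F2 were sought among 9383 genes with a mean of at least 10 CPM. Likeness was the root mean square difference of log2 CPM after centring each gene on its mean, so a smaller value is more alike. SMYD2, a lysine methyltransferase, came first at 0.258, followed by AMHR2 at 0.267, RFXAP at 0.270, and MCOLN1 and E2F7 at 0.273. The atypical repressor E2F7 was thus among the 5 genes nearest to E2F2. SMYD2 had 36.7, 36.2 and 48.5 CPM in miR92a cells, against 22.4, 23.1 and 27.5 CPM in scramble cells, and like E2F2 it was highest in replicate 3 of each group. Pseudogenes of the family, which could share reads with E2F3 or E2F6, held at most 26 counts each over the 6 libraries, and TFDP3 held 0.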

How the data were processed

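Total RNA of 6 K562 cultures was sequenced as read pairs and quantified by the authors with kallisto, per the labels' protocols, and GRCh38 is the build in the submitters' processing notes. For the kallisto version, the transcript annotation and the library strand, the sources used here say nothing. The authors deposited expected counts: reads per gene symbol as estimated by kallisto, given as whole numbers with no scaling. Of 35615 symbols, 12102 were at 0 in all 6 libraries.

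Low counts were removed with filterByExpr, which left 14543 genes. After TMM scaling these were tested on group alone with edgeR 4.0.16 in R 4.3.3 (quasi-likelihood test), with Benjamini-Hochberg adjustment over all tested genes and a threshold of 0.05. An SE is the fold change over the square root of F, and intervals are 95%. The code was tested on simulated data. Same-numbered libraries deviated together (correlation 0.15, 0.16 and 0.42 over all tested genes), from the counts and not from the labels, so values from a blocked fit, with 1 term per replicate number, stand beside the main ones where a call changes. Over the 4829 genes that average 1000 counts or more, miR92a 2 was nearer to scramble 1 (0.52) than to scramble 2 (0.48), so the block mainly separates replicate 3. P-values set the difference between groups against the spread of these libraries within groups. With the block that spread is what remains after the replicate terms.

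The members and lists were chosen with earlier results of these data known. All members are described. From each list up to 4 genes with the smallest p past the threshold, with or without the block, are named, or else up to 2 with the highest mean, as values. Locations, lengths and 3′ UTRs come from GENCODE v29, and promoters and miRNAs from RefSeq (GRCh38.p14), where 8 of 10 members gave 11 promoters that could be shown or counted. Promoter and seed searches used Python 3.11.15, pandas 2.3.3 and numpy 2.4.6, and figures matplotlib 3.10.9.

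Alternatives were DESeq2 1.42.0, limma-voom (limma 3.58.1), scaling by median of ratios or by total counts, filters of none or of 1 CPM on average, the block, replicate 3 as a batch term and leaving out libraries. DESeq2 and limma-voom with the block were added after the data were seen.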

Additional observations from a re-analysis of the deposited data

How the results depend on the processing

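E2F2, E2F4, E2F7, E2F8, TFDP1 and TFDP2 kept their direction in 19 of 19 alternatives, whereas E2F1, E2F3, E2F5 and E2F6, none of which passed, changed sign in at least 1. E2F3 was at 0.011 (log2) with total counts alone and E2F5 at -0.033 with limma-voom. With 1 library left out, the log2 fold change ran from -0.15 to 0.28 for E2F1, from -0.021 to 0.017 for E2F3, from -0.36 to 0.29 for E2F5 and from -0.16 to 0.17 for E2F6. It ran from -0.22 to -0.066 for E2F4 and from -0.21 to -0.084 for TFDP2. With the replicate block and 1 pair left out, E2F3 was at 0.016 and E2F5 at -0.19 without pair 2, and E2F6 at -0.14 without pair 3.

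The number of members called was 0 by group alone, 4 with the replicate block, 4 with replicate 3 as a batch term, 3 each with DESeq2 or limma-voom and the replicate block, 1 with DESeq2 and 1 with no filter on low counts. It was 0 or 1 with 1 library left out, and with the replicate block 2, 3 and 1 without pair 1, 2 and 3. Over all genes 205 were called by group alone, 379 with DESeq2, 1639 with the replicate block, 2238 with replicate 3 as a batch term, 1089 with DESeq2 and the replicate block and 1368 with limma-voom and the replicate block. Leaving out 1 library gave 70 to 201, and leaving out pair 1, 2 or 3 with the replicate block gave 1237, 834 and 1420.

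The pathway lists had 0 genes called by group alone, also with 1 library left out. With the replicate block they had 1 pocket or MuvB gene, 4 cyclins or kinases, 3 inhibitors, 2 turnover genes, 3 PRC1.6 genes, 16 G1/S targets and 1 death gene. With replicate 3 as a batch term the same lists had 2, 4, 3, 2, 4, 20 and 1. DESeq2 gave 2 cyclins or kinases, 1 inhibitor, 1 PRC1.6 gene and 3 targets, while limma-voom and a mean of at least 1 CPM each gave 1 PRC1.6 gene. With the replicate block, the targets called without pair 1, 2 and 3 were 11, 5 and 13. Cyclins or kinases then called were 3 (1 higher and 2 lower without pair 2, 2 higher and 1 lower without pair 1 or 3). Inhibitors were 2 to 3, turnover genes 1 to 2, PRC1.6 genes 0 to 2 and death genes 0 to 1. The pocket and MuvB list had 0 to 1 gene. The gene of that list called without pair 3 was DYRK1A, which was higher and is neither a pocket protein nor of the MuvB core, and not RBL2. The cause of these shifts was not tested.

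Depth limits miR92a 1, where 40.3% of tested genes had under 10 counts, against 1.89% to 2.52% in the other libraries. The replicate block rests on numbers that the labels do not explain.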
